A study of Rattus norvegicus with 12 samples.

Results

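MiRNA levels in the left ventricle of infarcted, saline-treated rats were compared with those of sham-operated, saline-treated rats. The arrays were chosen by their titles, which give 4 infarcted hearts (MI group, titled CHF for chronic heart failure) and 4 sham hearts (Sham group), 8 of the 12 arrays in all. The remaining 4 arrays are of infarcted rats given the herbal preparation YQFM. In the main fit they helped to estimate the spread. They also counted toward the scaling between arrays, the floor for low values and the choice of tested miRNAs. Per the study's methods, the animals were male Wistar rats, infarction in the MI rats was made by tying off the left anterior descending artery, and grouping followed 4 weeks after surgery. Both groups then received saline by daily intraperitoneal injection for 28 days. Tissue near the infarct was taken, so an array can hold RNA of muscle, scar and blood vessels, and less of a cell type cannot be told apart from less RNA per cell. Each rat had 1 array, and the labels do not say more about how the rats of a group were related.

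Group and slide could not be told apart. The arrays were on 3 slides. MI replicates 1 to 3 were on slide 1 with no other array of the series. MI replicate 4 shared slide 2 with YQFM replicate 1, and all Sham arrays were on slide 3 with the other YQFM arrays. No slide held both an MI and a Sham array, so no value within a slide can be given. A fit with slide as a fixed block reaches MI and Sham only through the YQFM arrays, and of the MI arrays it uses replicate 4 alone. The labels of 2 arrays conflict: the source names of MI replicate 4 and of Sham replicate 4 point to another group than their titles do, and the titles were used here. The arrays detected 211 to 268 miRNAs each, and the correlation of log2 signals over the miRNAs detected on all 8 arrays was 0.974 to 0.992 within groups and 0.957 to 0.99 between them.

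MiRNAs are short RNAs cut from a hairpin precursor, which can give a 5p and a 3p product, called its arms. Bases 2 to 8, the seed, do most of the pairing with target mRNAs, so miRNAs that share a seed form a family with overlapping targets. Many are made as clusters from 1 primary transcript. In the heart, miR-1 and miR-133 are the muscle miRNAs, miR-208a lies in the gene of the alpha myosin heavy chain, miR-21, miR-199a and miR-214 are known from fibroblasts and scar, and miR-29 and miR-30 are known to repress matrix genes.

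The mature sequences below carry the comparisons that follow. They are from RefSeq (GRCr8), 5′ to 3′, with the seed in capitals, and 239 of the 263 tested miRNAs had 1 sequence there. The first 5 are called miRNAs with bright signals:
miR-22-3p: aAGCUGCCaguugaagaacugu
miR-652-5p: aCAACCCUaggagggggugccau
miR-149-3p: gGGACGGGggcggugcug
miR-1249: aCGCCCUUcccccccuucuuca
miR-296-5p: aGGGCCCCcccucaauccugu
Next are miR-208a-5p, and miR-92b-3p beside miR-92a-3p, which has the same seed:
miR-208a-5p: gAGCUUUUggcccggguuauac
miR-92b-3p: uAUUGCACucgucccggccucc
miR-92a-3p: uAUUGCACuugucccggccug
MiR-133c is shown with miR-133a-3p because all 21 of its bases pair with it:
miR-133c: cAGCUGGUugaaggggaccaa
miR-133a-3p: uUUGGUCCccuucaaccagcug
The last 6 stand for the miR-290 cluster, the miR-30 and let-7 families and the miR-466 group:
miR-292-5p: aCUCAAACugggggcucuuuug
miR-294: cUCAAAAUggaggcccuaucu
miR-30e-5p: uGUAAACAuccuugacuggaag
let-7b-5p: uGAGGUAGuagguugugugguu
miR-466b-3p: aUACAUACacacacacauacac
miR-466c-3p: uAUACAUGcacacauacacac
In the array annotation, on rat build rn4 and without a strand, the probe of miR-22-3p maps to chr10:62782783-62782800, that of miR-652-5p to chrX:35821343-35821355, that of miR-296-5p to chr3:165193837-165193852, and that of miR-208a-5p to chr15:33051979-33051992.

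Of 263 tested miRNAs, 18 (6.84%) were lower and 1 (0.38%) was higher in MI than in Sham at an adjusted p under 0.05 (limma over all 12 arrays, Benjamini-Hochberg). Of the 19 called, 6 had bright signals, miR-22-3p, miR-652-5p, miR-30d-5p, miR-149-3p, miR-1249 and miR-296-5p, all lower in MI. Another 4 were dim and 9 were not detected on every array. A miRNA was tested when at least 2 arrays of a group detected it, and 14 of the 19 met this in both MI and Sham, 3 in Sham only, 1 in MI only, and 1 in neither but in YQFM. Changes were small: the largest ratio of any tested miRNA was 2.17-fold, and none reached the 4-fold threshold of the study's methods. The ratios here come from mean log2 signals after low values were raised to a floor, which limits the ratios of weak miRNAs. The study applied its threshold to values from its own processing, for Sham and for YQFM against MI, beside a Reverse Rate. It listed miRNAs that passed the fold threshold. Of those, only miR-381-3p is described here, and it was detected on none of the MI and Sham arrays. At an unadjusted p under 0.05 (limma), 66 (25.1%) were lower and 11 (4.18%) higher. This excess of lower miRNAs depended on the processing. When the brightest probe alone gave the signal, 60 of 81 such miRNAs were higher. In 31 miRNAs (11.8%) all MI arrays lay below all Sham arrays, and in 1 (0.38%), miR-146b-5p, all lay above.

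The number of calls varied with the arrays used, and none held with slide in the model. Without MI replicate 4, the fit called 62 miRNAs, 53 lower (20.2%) and 9 higher, and the 19 were all among them. Without MI replicate 2 or 3 it called 4, without Sham replicate 1 or 4 it called 7, without MI replicate 1 it called 11 and without Sham replicate 2 it called 12. With slide as a fixed block or as a random block it called none, and 18 and 13 miRNAs had an unadjusted p under 0.05 (limma). With the fixed block 13 of the 19 kept the sign of their ratio, and with the random block all 19 did. In 16 of the 19 called miRNAs, MI replicate 4 was the MI array nearest to the Sham mean or past it, against 52.5% of all tested miRNAs. Of 26 alternative settings, the call of miR-652-5p held in 16, that of miR-30d-5p in 13 and that of miR-22-3p in 9. Those of miR-149-3p and miR-1249 each held in 8, and that of miR-296-5p in 6.

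**Figure D1:**
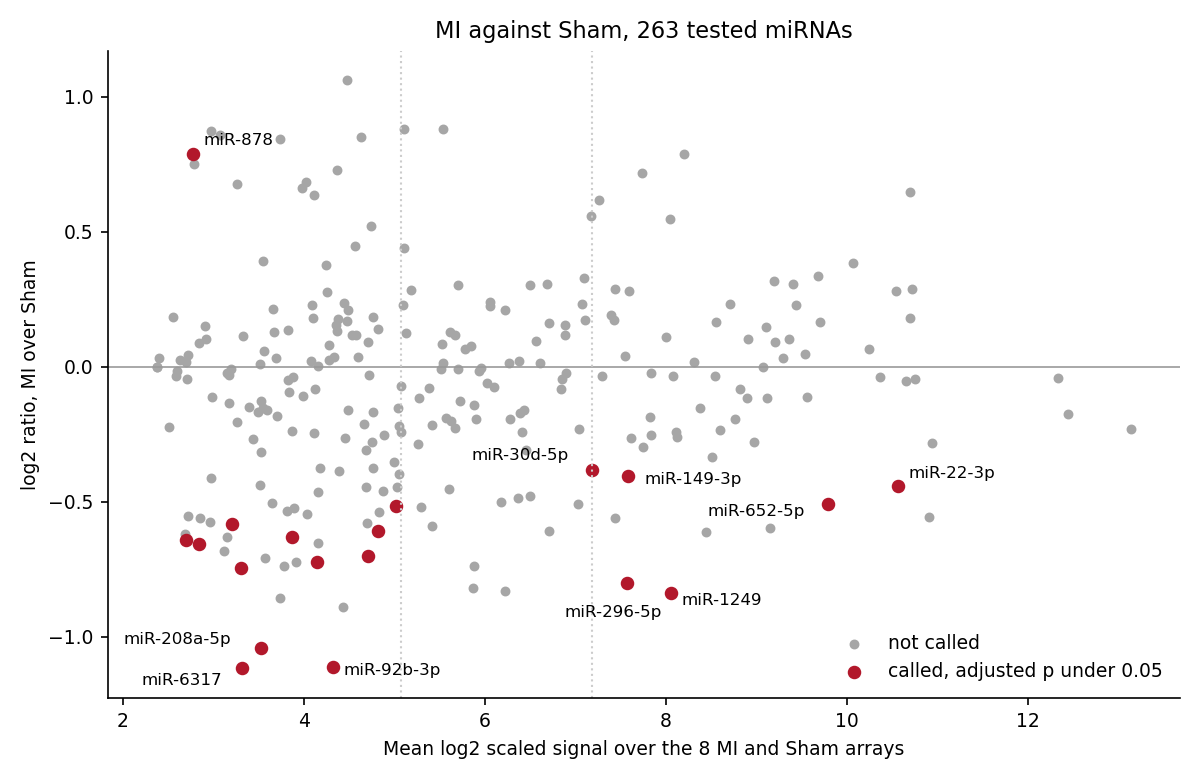
Each point is 1 of the 263 tested miRNAs. The x axis is the mean log2 scaled signal over the 8 MI and Sham arrays, the y axis the log2 ratio of MI over Sham, and the dotted lines are the lower limits of the bright and moderate miRNAs. The 19 called miRNAs are red, and 18 of them lie below 0.

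The 201 miRNAs detected on all 8 arrays were divided by mean log2 signal into bright, moderate and dim, 67 each. Signals of different miRNAs come from different probes and give no order of abundance. Among the bright, 6 were called, all lower, and the median log2 ratio was -0.03. No moderate miRNA was called, with a median of -0.02, although 13 were lower and 0 higher at an unadjusted p under 0.05. Among the dim, 4 were called, all lower. In the bright class 55 of 67 ratios, and in the moderate class 56 of 67, were within 0.5 of 0 on the log2 scale. The median over all tested miRNAs was -0.04, and it was -0.18 with slide as a fixed block.

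MiR-22-3p, a muscle-enriched miRNA known for its part in cardiac hypertrophy, had log2 signals of 10.36, 10.13, 10.26 and 10.60 in MI and 10.82, 10.68, 10.80 and 10.82 in Sham. The groups did not overlap, and MI replicate 4 was the highest of its group. The log2 ratio was -0.44 with an SE of 0.10 (limma adjusted p = 0.0279; exact permutation p = 0.0286, the smallest that 4 against 4 allow). MiR-652-5p, the 5p arm of a precursor within the span of Tmem164, had 9.57, 9.35, 9.54 and 9.68 in MI and 10.25, 9.88, 10.08 and 9.96 in Sham. Every MI array was below every Sham array (log2 ratio -0.51, SE 0.10, limma adjusted p = 0.0185).

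MiR-30d-5p had 7.01, 6.93, 6.89 and 7.13 in MI and 7.43, 7.34, 7.36 and 7.36 in Sham. The Sham arrays were closely grouped and the groups did not overlap (log2 ratio -0.38, SE 0.08, limma adjusted p = 0.0219). For miR-149-3p, within the span of the proteoglycan gene Gpc1, the values were 7.39, 7.23, 7.33 and 7.56 in MI and 7.87, 7.65, 7.87 and 7.73 in Sham. MI was again below Sham without overlap (log2 ratio -0.40, SE 0.10, limma adjusted p = 0.0279).

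MiR-1249 and miR-296-5p had larger ratios and more spread. The log2 signals of miR-1249 were 7.74, 7.26, 7.28 and 8.25 in MI and 8.75, 8.44, 8.48 and 8.21 in Sham. MI replicate 4 was above Sham replicate 4, so the groups overlapped (log2 ratio -0.84, SE 0.21, limma adjusted p = 0.0414). The signals of miR-296-5p followed the same order of arrays, with 7.29, 6.79, 6.83 and 7.76 in MI and 8.26, 7.93, 7.99 and 7.71 in Sham (log2 ratio -0.80, SE 0.21, limma adjusted p = 0.0456). Both ratios turned positive with slide as a fixed block, to 0.17 and 0.21. MiR-298-5p, in the same cluster as miR-296-5p, had a log2 ratio of -0.53 and was not called (limma adjusted p = 0.132).

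**Figure D2:**
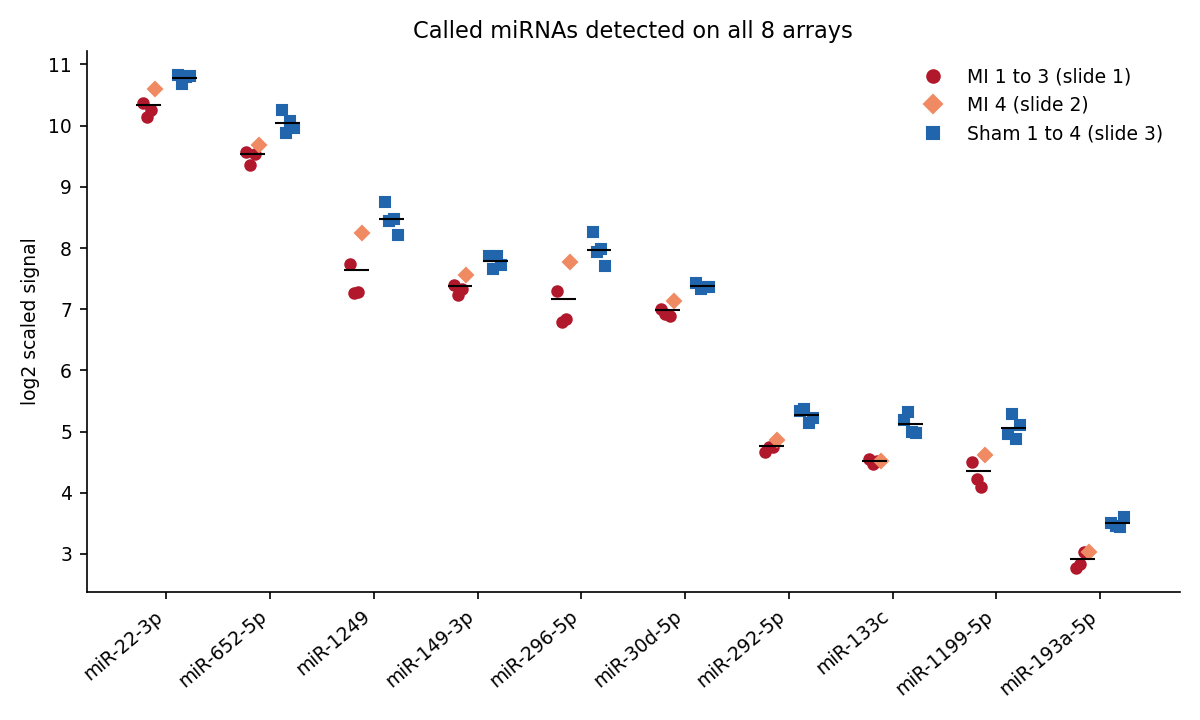
Log2 scaled signal (y axis) of the 10 called miRNAs detected on all 8 arrays, 1 point per array and the group mean as a line. MI replicate 4, on slide 2, is a diamond, and in 8 of the 10 it is the MI array nearest to the Sham mean.

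Of the dim miRNAs, miR-292-5p had 4.67, 4.75, 4.75 and 4.86 in MI and 5.34, 5.38, 5.15 and 5.22 in Sham (log2 ratio -0.51, SE 0.08, limma adjusted p = 0.0105). MiR-133c had 4.55, 4.47, 4.52 and 4.52 in MI and 5.19, 5.33, 4.99 and 4.98 in Sham (log2 ratio -0.61, SE 0.11, limma adjusted p = 0.0105). In both the groups were separate. MiR-193a-5p and miR-1199-5p had log2 ratios of -0.58 and -0.70, also without overlap between groups.

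The other 9 called miRNAs were not detected on every array. MiR-208a-5p, from the intron of Myh6, was detected on 1 of 4 MI and 4 of 4 Sham arrays. Its log2 signals were 3.07, 2.81, 2.83 and 3.32 in MI and 4.18, 4.16, 3.91 and 3.95 in Sham. It was tested because of its Sham arrays, and the log2 ratio of -1.04 (SE 0.15, limma adjusted p = 0.00678) is set against MI values that were mostly not well above background. MiR-92b-3p was detected on 3 MI and 4 Sham arrays, with 3.70, 3.51, 3.37 and 4.46 in MI and 4.94, 5.11, 4.77 and 4.67 in Sham (log2 ratio -1.11, SE 0.23, limma adjusted p = 0.0195). MiR-3120, miR-547-5p and miR-3074 were detected on 2 MI arrays and all Sham arrays, with log2 ratios of -0.63, -0.74 and -0.72. MiR-6317 was detected on 1 MI array and all Sham arrays, with a log2 ratio of -1.12, and like miR-208a-5p was tested because of its Sham arrays. For these 4 the MI values on the other arrays were not well above background. MiR-448-3p was not well above background on any MI array and was at least 1.58-fold lower there than in Sham (limma adjusted p = 0.0341). MiR-878, the 1 called miRNA that was higher, was detected on MI replicates 1 to 3 and on no Sham array, and was at least 1.73-fold higher in MI (limma adjusted p = 0.0416). Both bounds are set against the floor or the signal itself where that was higher, and each miRNA was tested because of the group in which it was high. MiR-503-3p was not well above background on any of the 8 arrays, so no fold is given.

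By seed, the miR-25/92 family showed unequal members. MiR-92b-3p fell, miR-92a-3p had a log2 ratio of -0.24 (limma adjusted p = 0.153) and miR-25-3p one of -0.01. The 5p arms of miR-30 all had negative log2 ratios. MiR-30d-5p was the 1 of 5 that was called, against 6.84% of all tested miRNAs called lower. The ratios ran from -0.56 for miR-30e-5p to -0.24 for miR-30a-5p with a median of -0.38. MiR-30e-5p had 7.10, 6.81, 7.11 and 7.62 in MI and 7.66, 7.69, 7.73 and 7.79 in Sham, with no overlap, and just missed the threshold (limma adjusted p = 0.052). Without MI replicate 4, 4 of the 5 were called, against 20.2% of all tested miRNAs called lower in that fit. With slide as a fixed block their median was -0.07.

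The miR-290 cluster, 7 miRNA genes in RefSeq best known from early embryos, had 5 tested miRNAs, all with negative log2 ratios. Over all tested miRNAs, 151 of 263 log2 ratios were negative. MiR-292-5p was the 1 that was called, against 6.84% of all tested miRNAs called lower. MiR-291a-5p and miR-294 had larger log2 ratios of -0.82 and -0.74 (limma adjusted p = 0.0618 and 0.052), miR-290 one of -0.30 and miR-295-5p one of -0.24. The median of -0.51 became -0.01 with slide as a fixed block. The 3 probes of miR-294 gave log2 ratios from -1.33 to -0.35, all of 1 sign. For the called miR-292-5p, the brightest probe alone gave a log2 ratio of 0.01 (limma adjusted p = 0.979). The call of miR-292-5p held in 18 of 26 alternative settings, as did those of miR-133c and miR-193a-5p.

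The let-7 family showed the opposite sign. All 9 tested members with the shared seed had positive log2 ratios, from 0.05 for let-7f-5p to 0.31 for let-7i-5p, and none was called. Over all tested miRNAs, 112 of 263 log2 ratios were positive and 0.38% were called higher. Let-7b-5p had 11.17, 11.09, 10.72 and 10.46 in MI and 10.69, 10.42, 10.55 and 10.64 in Sham. MI replicates 1 and 2 were high and MI replicate 4 was near the lowest Sham array. With slide as a fixed block all 9 turned negative, with a median of -0.49. The miR-15/16 seed family, with its close relative miR-503-5p, had 6 of 6 ratios positive and 0 called, and the highest was 0.55. With the block 6 of 6 were negative.

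Of the fibroblast list, miR-21-5p, miR-214-3p, miR-199a-3p and miR-199a-5p, all 4 had positive log2 ratios, with a median of 0.67, and none was called. Of all 263 tested miRNAs, 112 had positive ratios and 0.38% were called higher. MiR-21-5p, which is known to rise in cardiac fibroblasts under stress, had 9.20, 8.67, 7.67 and 8.85 in MI and 7.93, 7.40, 7.96 and 7.94 in Sham. MI replicate 3 lay inside the Sham range and the other MI arrays above it (log2 ratio 0.79, SE 0.38, limma adjusted p = 0.194). MiR-214-3p had 7.93, 8.03, 7.21 and 7.10 in MI and 7.21, 6.59, 7.16 and 6.83 in Sham. Its MI arrays fell into a high pair and a pair at the Sham level (log2 ratio 0.62, SE 0.37, limma adjusted p = 0.292). The summed scaled signal of the 4 miRNAs was 473 to 1104 in MI and 380 to 561 in Sham. With slide as a fixed block all 4 ratios were negative, with a median of -1.14.

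**Figure D3:**
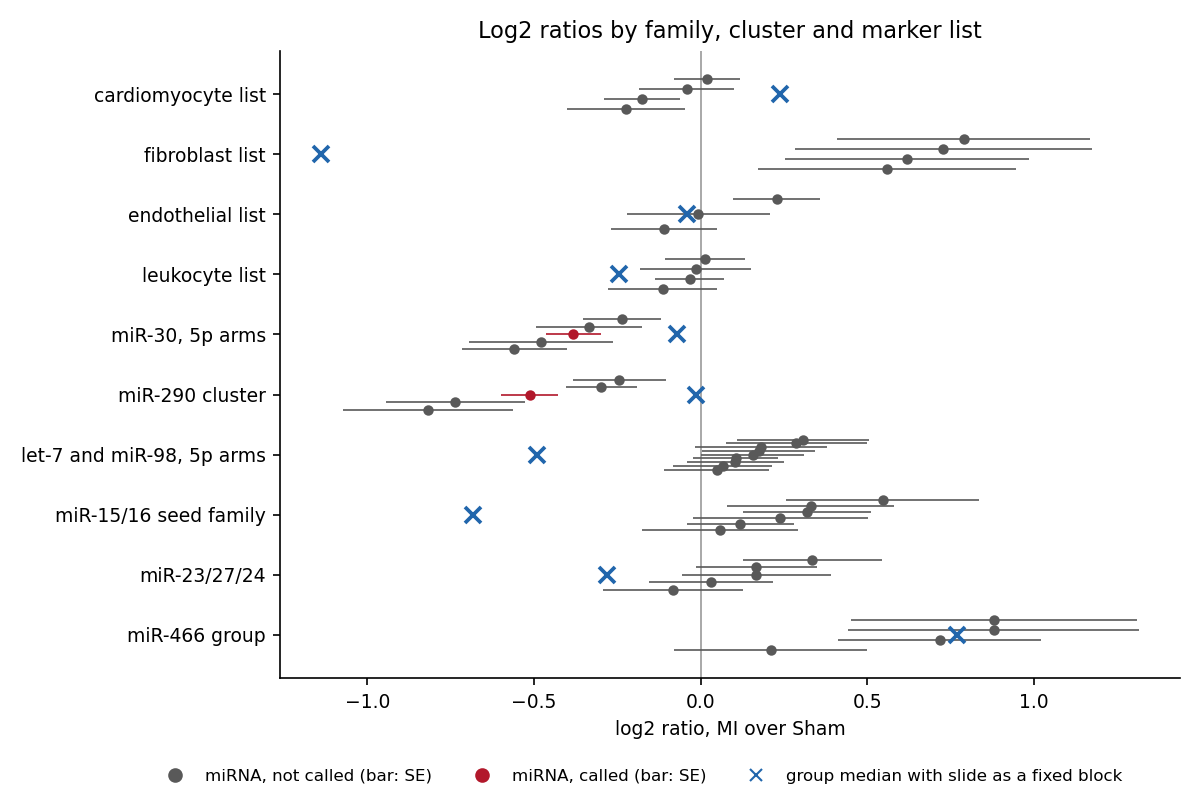
Log2 ratios of MI over Sham (x axis) by family, cluster and marker list, 1 point per miRNA with its SE, called miRNAs in red, and a cross for the group median with slide as a fixed block. The miR-30 and miR-290 points are all below 0, and the let-7, miR-15/16, fibroblast-list and miR-466 points are all above 0.

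The miR-466 group, made of repeat-rich sequences, had 4 tested members, all positive and 0 called. These counts stand beside 112 of 263 positive ratios and 0.38% called higher over all tested miRNAs. MiR-466b-2-3p, miR-466c-3p and miR-466b-3p had log2 ratios of 0.88, 0.88 and 0.72. MiR-466b-3p had 7.90, 8.16, 8.63 and 7.67 in MI and 7.91, 7.60, 6.82 and 7.16 in Sham. Sham replicate 1 lay inside the MI range, and the limma adjusted p was 0.143. All 4 remained positive with slide as a fixed block, with a median of 0.77. The mature sequences of miR-466b-3p and miR-466c-3p are close to each other, and signal of 1 member on the probes of another was not tested.

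The main muscle miRNAs had ratios near 0. MiR-1-3p had 12.57, 12.15, 12.26 and 12.26 in MI and 12.67, 12.15, 12.12 and 12.46 in Sham (log2 ratio -0.04, SE 0.14, limma adjusted p = 0.899). MiR-133b-3p had 12.38, 12.15, 12.35 and 12.52 in MI and 12.66, 12.43, 12.36 and 12.66 in Sham (log2 ratio -0.18, SE 0.11, limma adjusted p = 0.325). The arrays of the groups overlapped for both. Of the cardiomyocyte list, 4 of 6 miRNAs on the array were tested, with a median of -0.11 and 0 called. The wider group of miR-1, miR-133, miR-206, miR-208 and miR-499 had 10 tested miRNAs with a median of -0.21. Of these 10, 8 were lower, against 151 of 263 over all tested miRNAs. MiR-208a-5p and miR-133c were the 2 called, against 6.84% of all tested miRNAs called lower. With slide as a fixed block the median of this group was 0.05. Of the opposite arms, miR-1-5p had a log2 ratio of -0.71 (limma adjusted p = 0.052) and miR-133a-5p one of -0.19.

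**Figure D4:**
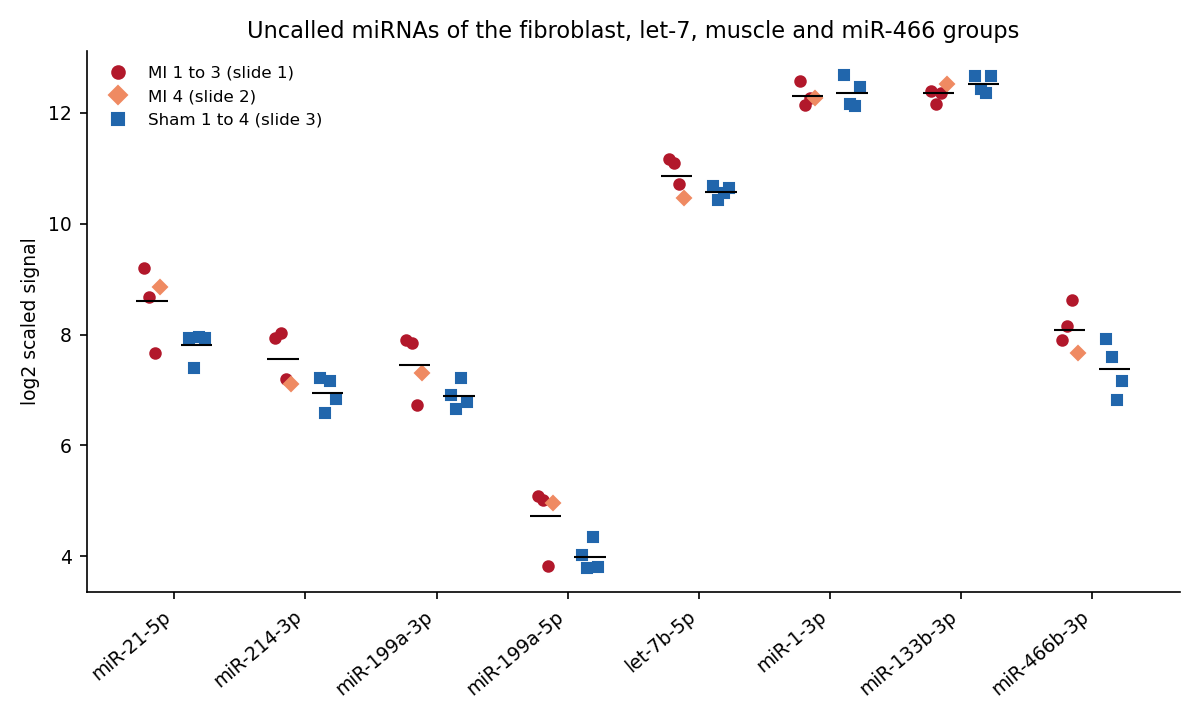
Log2 scaled signal (y axis) of 8 uncalled miRNAs, 1 point per array and the group mean as a line. MiR-21-5p, miR-214-3p and the miR-199a arms spread widely in MI, while miR-1-3p and miR-133b-3p overlap between groups.

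Other cell types were followed by lists of their miRNAs. The endothelial list had 3 of 4 tested, with log2 ratios of 0.23 for miR-126a-3p, -0.11 for miR-126a-5p and -0.0063 for miR-222-3p, and 0 called. The leukocyte list had 4 of 6 tested, with log2 ratios from -0.11 to 0.01 and 0 called. Smooth muscle miR-143-3p and miR-145-5p had log2 ratios of -0.11 and -0.28, and miR-486 and miR-451-5p of the erythrocyte list -0.26 and -0.13. The liver, neuron and epithelium markers, 7 in all, were detected on none of the 8 arrays. The epithelium list held 3p arms only. The 5p arms of miR-200b and miR-200c were tested, with log2 ratios of -0.58 and -0.55, and were not detected on every array. In the role lists, miR-29a-3p had a log2 ratio of 0.28 and miR-29c-3p one of -0.19, and miR-29b-3p was at 0 to 2 decimals. The miR-23/27/24 clusters ran from -0.08 for miR-27a-3p to 0.34 for miR-23b-3p, with miR-24-3p at 0.17. In the stress list miR-34a-5p had 0.30 and miR-210-3p -0.22. The 4 tested miRNAs of the imprinted Dlk1-Dio3 cluster list were miR-487b-3p at -0.86, miR-409a-3p at -0.58, miR-494-3p at 0.17 and miR-382-5p at 0.68, with a median of -0.20. None of these was called. Of the Dlk1-Dio3 list, 19 of 23 miRNAs were detected on none of the 8 arrays. The miR-17/92 list had 7 tested miRNAs, 6 of them lower, a median of -0.07 and 0 called. The miR-29 and miR-30 list had 8 tested and 1 called, miR-30d-5p, and the hypertrophy and metabolism list had 8 tested and 1 called, miR-22-3p. These counts of 1 in 8, and the counts of 0 called, stand beside 6.84% of all tested miRNAs called lower and 0.38% called higher.

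Among the miRNAs of highest mean signal, miR-3473 had a log2 ratio of -0.23, miR-1b of -0.28, miR-1224 of -0.55, miR-1896 of -0.04, miR-211-3p of -0.05, let-7c-5p of 0.18 and miR-6215 of 0.65, none called. MiR-6215 had 11.46, 11.18, 11.05 and 10.35 in MI and 11.21, 9.50, 10.61 and 10.15 in Sham, so the spread of both groups was wide. The remaining miRNAs of largest ratio were miR-125b-1-3p at -0.83 and miR-3593-3p at -0.61, with limma adjusted p of 0.194 and 0.052. All arrays of MI lay below Sham for miR-3593-3p.

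Arm balance was the log2 signal of the 5p arm minus that of the 3p arm, and its change between groups was tested for 28 precursors. In 1 of them (3.57%), miR-652, it changed. The balance was 3.76, 3.61, 4.13 and 3.23 in MI and 4.55, 4.46, 4.73 and 4.23 in Sham, without overlap (change -0.81, SE 0.21, limma adjusted p = 0.0449). MiR-652-5p was lower and miR-652-3p had a log2 ratio of 0.30 (limma adjusted p = 0.37). The next were miR-423 with a change of 0.49 and miR-1199 with -0.45, both at a limma adjusted p of 0.278. In 19 of the 28 precursors both arms had ratios of the same sign. With slide as a fixed block the miR-652 change was -0.68 and was not called (limma adjusted p = 0.668). It was not called without MI replicate 1 or 2 or without Sham replicate 1, 2 or 3, and without MI replicate 4 the calls rose to 5 precursors.

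**Figure D5:**
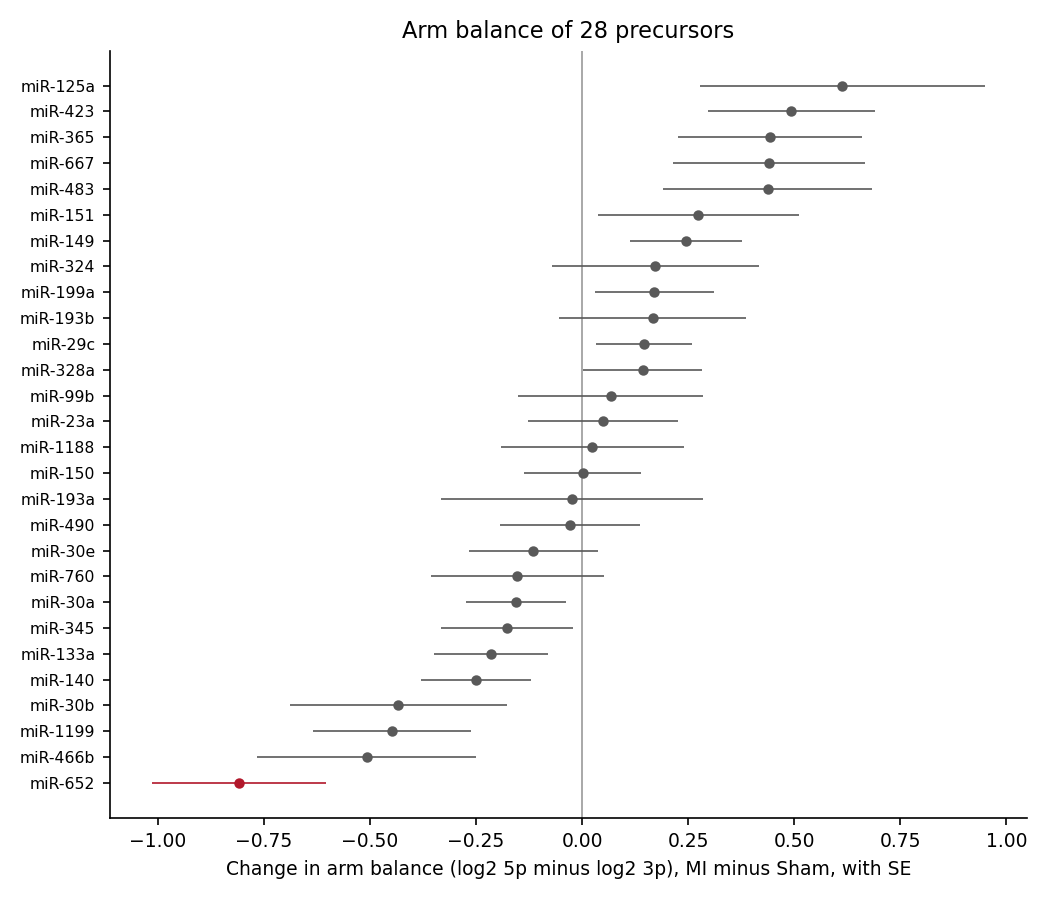
Change in arm balance of 28 precursors (x axis, log2 5p minus log2 3p, MI minus Sham) with its SE. MiR-652, in red, at -0.81, is the 1 precursor that was called.

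The called miRNAs were also described by sequence and gene position. Of the 18 called miRNAs with a sequence, 5 come from a gene that lies opposite another miRNA gene in RefSeq, against 31 of 239 tested. MiR-133c lies opposite miR-133a, whose arms had log2 ratios of 0.02 (3p) and -0.19 (5p). MiR-3120 lies opposite miR-214 (0.62 for miR-214-3p), miR-3074 opposite miR-24 (0.17 for miR-24-3p) and miR-193a opposite miR-3549 (-0.37). None of these partners was called, and the partner of miR-208a was not among the tested miRNAs. By GC content, the third of miRNAs with the lowest GC had a median log2 ratio of 0.03 and the third with the highest one of -0.18. Over the 239 miRNAs the rank correlation of GC content and log2 ratio was -0.24, and 0.13 with slide as a fixed block. These are miRNAs of the same arrays and no replicates, so the correlation is a description, and the part of GC content in the calls was not tested.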

How the data were processed

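MiRNAs were measured in left ventricle near the infarct of 12 rats on Agilent rat miRNA arrays with 1 dye, Cy3, and 8 arrays are compared here. The authors deposited scanner files whose intensity values had been background-subtracted by Feature Extraction 10.7.1.1 (per the submitters' processing notes) and were not scaled between arrays, and a table of processed intensity values. For the arrays, the study's methods name GeneSpring and a choice of miRNAs by a fold threshold of 4 and a Reverse Rate. An unpaired t-test and one-way ANOVA are named for differences among groups in general. The array annotation is on build rn4. Members and lists were chosen with earlier results of these data known.

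Control and outlier spots were left out. Signals were averaged per probe and per miRNA and divided by the 75th percentile of each array, taken over the 201 miRNAs that all arrays detected. Values below the floor of 5.20 were set to it, then log2 was taken. A probe was detected when over 50% of its spots were well above background, a miRNA when 1 probe was. The 263 of 758 miRNAs detected on at least 2 of 4 arrays of a group were tested, and an arm balance where both arms were detected on at least 3. No array detected 471 of them, so signal over background sets a limit, and precision is limited by how few arrays there are.

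The MI and Sham groups were compared with limma 3.58.1 in R 4.3.3 over all 12 arrays, with Benjamini-Hochberg adjustment at 0.05, and with exact two-sided permutation tests. The fit was tested on simulated data. P-values set the difference between groups against the spread of arrays within groups. That difference also holds any difference between slides. Clusters were miRNA genes within 10 kb on 1 strand. Named miRNAs were those called and detected on at least 3 arrays of both groups, the 6 highest and 6 lowest ratios among bright and moderate miRNAs, the 10 brightest, the brightest of each list, and the 3 arm balances of smallest p. The remaining names were chosen after their values were seen, as members of a family, cluster or pair described. Alternatives covered background, signal, scaling, floor, probes, filter, arrays, replicate number, slide, moderation and the t-test.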

Additional observations from a re-analysis of the deposited data

Results flagged for a closer look

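In 5 of 86 groups of 4 arrays tested over the named results, 1 array stood far from the other 3, by Dixon's gap test at the 95% level, and chance gives about 1 in 20. In Sham, replicate 2 stood apart for miR-3593-3p (gap 0.869 of the range), where it was high at 9.10, for miR-21-5p (0.951), where it was low at 7.40, and for miR-16-5p (0.986), where it was low at 8.77 against 9.11 or more. Sham replicate 3 was low for miR-494-3p at 6.79 (0.952). In MI, replicate 1 was high for miR-126a-3p at 9.85 (0.982), and the other 3 were at 9.44 or 9.45.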

How the results depend on the processing

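Called miRNAs numbered 19 and ranged from 4 to 62 with 1 of the 8 arrays left out, lowest without MI replicate 2 or 3 and highest without MI replicate 4. Without both arrays of conflicting labels 58 were called, 8 of them higher. The count was 5 with normexp background, 0 with the Feature Extraction total signal (38 at an unadjusted p under 0.05), 3 with the percentile over all miRNAs, 2 with quantile normalization (1 higher and 1 lower), 0 without scaling (42 unadjusted), 2 with the brightest probe only (1 higher and 1 lower), 7 with miRNAs detected on all 12 arrays and 6 with the methods' t-test (59 unadjusted, none at the fold threshold). With slide as a fixed block it was 0 and as a random block 0. The median ratio moved by 0.14 with the total signal, 0.19 with the brightest probe, -0.13 with the fixed block and -0.11 with the random block. Of miRNAs with an unadjusted p under 0.05, 60 of 81 were higher with the brightest probe and 19 of 38 with the total signal. In all the other settings more were lower than higher, with 27 of 78 higher under quantile normalization. The replicate numbers were not used as pairs in the main fit. Deviations of same-numbered MI and Sham arrays correlated at 0.25, -0.27, 0.0012 and 0.018, which cannot show whether the samples were paired. The replicate block called 10 miRNAs and 0 arm balances. The authors' processed values gave 15, a floor divided by 4 gave 23, no detection filter 18, a fit of the MI and Sham arrays only 14 and a trend in the moderated test 22. The percentile over the 8 arrays used the same 201 miRNAs and changed nothing. The fit without a detection filter left out 444 miRNAs at the floor on all 12 arrays.

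Arm balances numbered 1, 0 to 5 with 1 array left out, 5 without both arrays of conflicting labels, and 0 with the total signal, quantile normalization, either slide block or a trend in the moderated test. MiRNAs without overlap numbered 32, 33 to 80 with 1 array left out, 16 with normexp, 10 with the total signal, 9 without scaling and 85 without both arrays of conflicting labels. Leaving out arrays can only keep or raise this count, because the values were not rescaled.

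Ratios that changed sign with slide as a fixed block were miR-1199-5p 0.22, miR-1249 0.17, miR-296-5p 0.21, miR-92b-3p 0.14, miR-125b-1-3p 0.75, miR-291a-5p 0.43, miR-294 0.46, miR-3593-3p 0.23, miR-214-3p -1.45, miR-6215 -0.51, miR-21-5p -0.41, miR-3473 0.12, miR-133b-3p 0.21, miR-1-3p 0.036, let-7b-5p -0.96, let-7c-5p -0.84, miR-211-3p 0.28, miR-126a-3p -0.040, miR-150-5p 0.056, miR-486 0.012, miR-29a-3p -0.015, miR-16-5p -0.63, miR-24-3p -0.28, miR-34a-5p -0.61, miR-494-3p -0.064, and the arm balances of miR-423 -0.069 and miR-1199 0.13. With the random block they were miR-214-3p -0.21, let-7b-5p -0.20, let-7c-5p -0.23, miR-211-3p 0.11, miR-16-5p -0.054, miR-24-3p -0.034 and miR-34a-5p -0.058. With the total signal they were miR-1199-5p 0.10, miR-193a-5p 1.32, miR-133b-3p 0.0050, miR-1-3p 0.14, miR-1896 0.14, miR-211-3p 0.13, miR-143-3p 0.068, miR-150-5p 0.15 and the miR-1199 arm balance 0.17. With the brightest probe they were miR-292-5p 0.013, miR-3473 0.015, miR-133b-3p 0.065, miR-1-3p 0.20, miR-1896 0.18, miR-211-3p 0.15, miR-143-3p 0.15, miR-150-5p 0.23 and miR-92a-3p 0.012. With normexp miR-193a-5p was 0.0063. With the percentile over all miRNAs miR-1-3p was 0.051, miR-1896 0.048, miR-211-3p 0.040 and miR-150-5p 0.060. Without both arrays of conflicting labels miR-1-3p was 0.010 and miR-211-3p 0.012. With 1 array left out, miR-1-3p ran from -0.13 to 0.066, miR-211-3p from -0.12 to 0.065, miR-1896 from -0.12 to 0.018, miR-150-5p from -0.079 to 0.027 and miR-143-3p from -0.20 to 0.0099. The cause of these changes was not tested.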

Other observations

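Over the 201 miRNAs detected on all 8 arrays, the median SD of the log2 signal was 0.255 in MI and 0.183 in Sham, and the SD was larger in MI for 125 miRNAs. Apart from miR-878, and likewise tested because of their MI arrays, miR-146b-5p and miR-743a-3p were detected on 3 MI arrays and on no Sham array. MiR-146b-5p had log2 signals of 4.00, 3.65, 2.73 and 3.27 in MI and 2.70, 2.38, 2.45 and 2.64 in Sham. MiR-743a-3p had 3.51, 3.22 and 3.54 on MI replicates 1 to 3 and was at the floor of 2.38 on MI replicate 4.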
